A study of Mus musculus with 12 samples.

Results

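The 10 genes described here, Cd9, Cd81, Cd37, Cd53, Cd63, Cd82, Cd151, Tspan15, Tspan32 and Tspan33, encode tetraspanins and were followed over 12 RNA sequencing libraries of mouse spleen B cells. They are 10 of the 43629 genes in the deposited count table. The genes were taken as a named list, and Cd81 and Tspan15 were chosen by their measured levels in these same libraries, so both are described by level and fold change with no test. All of the listed genes were found in the table, and all passed the filter on low counts in each comparison. Where marginal zone cells were set against follicular B cells, Cd63, Tspan15 and Tspan33 passed it through the marginal zone libraries, as their follicular counts are low.

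Marginal zone (MZ) B cells, which lie at the border of the splenic follicle and answer blood-borne antigen quickly, were compared between Zfp36l1-deficient and control cells. Zfp36l1 is an RNA-binding protein that promotes decay of mRNAs with AU-rich elements. The 4 deficient MZ libraries (replicates 1, 2, 7 and 8) carry the genotype Zfp36l1fl/flERT2cre/+, the 4 control MZ libraries (replicates 3, 4, 5 and 6) the genotype ERT2cre/ERT2cre, and the 4 libraries of recirculating follicular (FO) B cells (replicates 3, 4, 7 and 8) the genotype Zfp36l1fl/fl without cre. The strain entry is Zfp36l1tm1.1Tnr for all 12 samples. Sorting used CD21hi CD23- for MZ cells and CD21+ CD23+ for FO cells, with B220 and CD93 given as positive in both gates. The sources used here do not give the promoter that drives ERT2cre, the age of the mice or a drug that activates the recombinase.

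By genotype, deficient MZ cells carry floxed Zfp36l1 with 1 ERT2cre copy and control MZ cells 2 ERT2cre copies, and loss of Zfp36l1 and cre dose cannot be told apart. MZ and FO libraries differ in cell type, library kit, read layout and genotype at once, and these cannot be told apart either. The labels do not tie replicates to separate animals, and the spread that the p-values rest on is that of these samples and may be technical. In bulk RNA, fewer cells of a type and less RNA per cell cannot be told apart.

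Tetraspanins are small membrane proteins that span the membrane with 4 helices and hold partner receptors, integrins and proteases in microdomains. On B cells CD81 belongs to the coreceptor complex that also holds the complement receptor CD21. CD9 is used in mouse spleen as a surface marker of MZ and B-1 B cells, CD37 and CD53 are largely restricted to leukocytes, and the TspanC8 group, which includes Tspan15 and Tspan33, escorts the protease ADAM10 to the cell surface.

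Depth ran between 28938453 and 40664963 counts per library. Zfp36l1 mRNA averaged 29.9 ± 6.53 CPM (TMM-scaled counts relative to library total; mean ± SD, n = 4 in every group) in deficient MZ, 117 ± 6.66 CPM in control MZ and 369.8 ± 18.7 CPM in FO libraries, and deficient and control MZ libraries did not overlap (log2 −1.98, SE 0.12; edgeR, adjusted p = 4.18e-07). Each of the 10 listed MZ markers was called higher in MZ than in FO libraries in both comparisons, and 7 of the 8 listed FO markers were called lower. The other FO marker, Cxcr5, was called higher in both (log2 0.26 for control MZ, 0.34 for deficient MZ). The marker lists here and below were chosen with earlier results of these data known, so these counts are no independent check of cell identity. Over all genes, 42.6% were called higher and 38.7% lower in control MZ against FO. In deficient MZ against FO these shares were 42.8% and 38.3%. The MZ list includes Cd9, itself described here, and Cr2, which encodes the sorted CD21, and the FO list includes Fcer2a, which encodes the sorted CD23. The summed MZ markers spanned 8299 to 8587 CPM in deficient MZ, 8788 to 9337 CPM in control MZ and 2071 to 2260 CPM in FO libraries. The summed FO markers spanned 2021 to 2458 CPM in deficient MZ, 1721 to 1855 CPM in control MZ and 5868 to 6091 CPM in FO libraries. Between deficient and control MZ, 2.3% of all genes tested were called higher and 1.46% lower. There, 6 of the 8 FO markers were called higher, and 2 MZ markers were called higher and 2 lower. Of these calls, Myof (MZ list) was lost in 11 of the alternatives, Itgb7 (FO list) in 5, Hes5 (MZ list) in 4 and Ccr7 (FO list) in 3. The part of these shifts in the values below was not tested.

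Per kilobase of exon, Cd53 and Cd37 stood first in every group. The length is that of all annotated exons of a gene merged, not of the transcripts in use, so the order between genes is approximate. By CPM alone, Cd37 lay above Cd53, at 1894 against 1028 CPM in control MZ. In deficient MZ libraries Cd53 held 644 CPM per kb, Cd37 577, Cd81 331, Cd9 79.8, Cd82 76.1, Tspan32 31.8, Tspan15 17.6, Cd151 1.04, Cd63 0.619 and Tspan33 0.200. In control MZ libraries Cd53 held 590.3 CPM per kb, Cd37 537.8, Cd81 173, Cd9 86.1, Cd82 84.1, Tspan32 40.0, Tspan15 9.32, Cd151 1.02, Cd63 0.257 and Tspan33 0.0931. In FO libraries Cd37 held 582 CPM per kb, Cd53 549, Cd81 89.0, Cd82 52.9, Tspan32 16.7, Cd151 7.51, Cd9 2.26, Cd63 0.0838, Tspan33 0.0399 and Tspan15 0.0140. Both MZ groups shared 1 order from first to last. The FO order placed Cd151 above Cd9 and Tspan15 last. Neighbours in the order whose libraries overlapped were Cd53 and Cd37, Cd9 and Cd82, and Cd151 and Cd63 in deficient MZ, Cd9 and Cd82 and also Cd63 and Tspan33 in control MZ, and Cd37 and Cd53 and also Cd63 and Tspan33 in FO libraries.

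The 10 genes together summed to 1759 ± 96.9 CPM per kb in deficient MZ, 1522 ± 78.9 in control MZ and 1299 ± 46.6 in FO libraries (SD, n = 4 each). Cd81 made up 18.8% of this sum in deficient MZ, 11.4% in control MZ and 6.85% in FO libraries. Cd53, Cd37 and Cd81 carried most of the sum in each group. Cd81, which was chosen by these levels, had the largest absolute difference in CPM per kb between deficient and control MZ. By fold change, the scarce Cd63 (log2 1.26) and Tspan33 (1.08) lay above Cd81 (0.92).

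**Figure D1:**
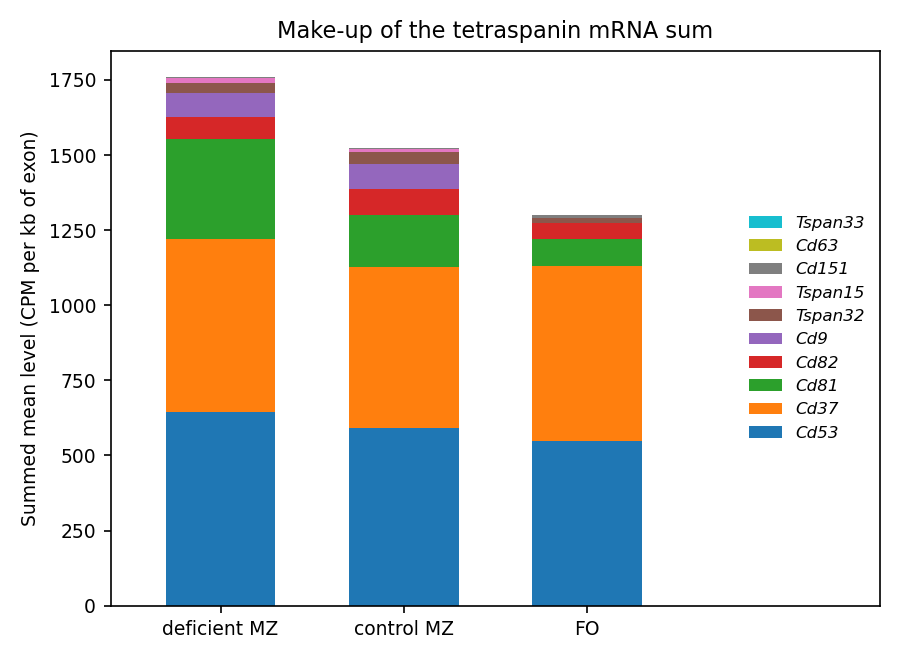
Stacked bars give the mean level per kb of exon (CPM per kb, n = 4 libraries per bar) of the 10 genes in deficient MZ, control MZ and FO libraries. The sums are 1759, 1522 and 1299 CPM per kb, and the Cd81 layer is 331, 173 and 89.0.

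Cd81 (ENSMUSG00000037706, chr7:143052739-143067934, plus strand, GRCm38) read 1005, 829.7, 811.7 and 1160 CPM in deficient MZ replicates 1, 2, 7 and 8, against 445.4, 481.3, 562.6 and 506.1 CPM in control MZ replicates 3, 4, 5 and 6. FO replicates 3, 4, 7 and 8 read 256.3, 251.8, 266.4 and 250.1 CPM. All deficient libraries lay above all control libraries, and all control libraries above all FO libraries. Deficient against control MZ gave a log2 fold change of 0.92 (SE 0.11) and control MZ against FO 0.97 (SE 0.06), and these 2 comparisons share the control libraries. Deficient MZ against FO gave 1.92 (SE 0.11). Deficient replicates 1 and 8 were the higher ones, and the deficient group had the widest spread, with an SD of 164 CPM beside 49.2 in control MZ and 7.34 in FO libraries.

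Tspan15 (ENSMUSG00000037031, chr10:62185396-62231251, minus strand), a TspanC8 member, read 164.1, 98.94, 143.5 and 169.6 CPM in deficient MZ, against 87.86, 74.77, 77.29 and 65.2 CPM in control MZ. In FO libraries it read 0.157, 0.0317, 0.213 and 0.0562 CPM, which rest on 5, 1, 7 and 2 counts. The deficient libraries again lay above the control libraries, with deficient replicate 2 nearest to them. Deficient against control MZ gave a log2 fold change of 0.91 (SE 0.14). The group sums were 20610 counts in deficient MZ, 12139 counts in control MZ and 15 counts in FO libraries, so the fitted log2 values against FO, 10.29 (SE 0.31) for deficient MZ and 9.36 (SE 0.21) for control MZ, rest on those 15 counts. Of the 10 genes, Tspan15 had the lowest summed count in FO libraries.

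B-1 cells are another B cell type, of which some live in the spleen. Their summed markers, like Cd81 and Tspan15, were higher in deficient than in control MZ. The 6 markers summed to 72.6 to 79.0 CPM in deficient MZ, 37.6 to 42.5 CPM in control MZ and 46.3 to 60.4 CPM in FO libraries, with none at 0. Beside 2.3% of all genes tested, 3 of the 5 tested markers were called higher in deficient than in control MZ. These were Bhlhe40 (log2 1.25; edgeR, adjusted p = 1.05e-05), Zbtb32 (1.90; edgeR, adjusted p = 0.000744) and Nid1 (0.76; edgeR, adjusted p = 0.000744), while Cd5 (0.27; edgeR, adjusted p = 0.608) and Itgam (−0.15; edgeR, adjusted p = 0.803) were not called. The part of B-1 cells in the Cd81 and Tspan15 values was not tested.

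The promoters of Cd81 and Tspan15 are shown because these genes were picked for their levels, and because Notch signalling, which acts through RBPJ, and KLF factors are both known in MZ B cells. They are windows of 300 bases on GRCm38.p6, from 250 bases before the RefSeq start to 50 after it. For both genes that start differs from the GENCODE start in the coordinates above. The windows are chr7:143052500-143052799 on the plus strand for Cd81 and chr10:62231169-62231468 on the minus strand for Tspan15. Capitals mark the RBPJ core TGGGAA and the KLF core CACCC, each read on both strands, so TTCCCA and GGGTG count as well.
Cd81: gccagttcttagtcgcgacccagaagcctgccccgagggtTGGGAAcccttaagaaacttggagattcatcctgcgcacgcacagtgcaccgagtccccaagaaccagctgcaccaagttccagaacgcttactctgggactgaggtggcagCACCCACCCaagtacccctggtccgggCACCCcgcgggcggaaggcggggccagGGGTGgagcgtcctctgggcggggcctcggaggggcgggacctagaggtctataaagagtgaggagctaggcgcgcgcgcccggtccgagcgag
Tspan15: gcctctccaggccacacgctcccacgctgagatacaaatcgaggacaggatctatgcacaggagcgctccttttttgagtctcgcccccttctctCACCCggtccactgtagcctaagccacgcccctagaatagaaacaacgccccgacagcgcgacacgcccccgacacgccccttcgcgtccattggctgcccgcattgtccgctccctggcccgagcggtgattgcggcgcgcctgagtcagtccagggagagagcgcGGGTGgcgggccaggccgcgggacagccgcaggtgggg
The Cd81 window holds 1 RBPJ core and 4 KLF cores, of which 2 overlap in the first capital run of KLF letters, and the Tspan15 window holds 0 RBPJ cores and 2 KLF cores. Of 32851 promoter windows, 25.6% hold the RBPJ core and 57.5% the KLF core. Both windows are rich in G and C, at 65.7% for Cd81 and 66.3% for Tspan15 beside a median of 52.7%, and hold 23 and 29 CpG pairs beside a median of 7. These are letter matches in 1 window per gene, not measured binding.

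**Figure D2:**
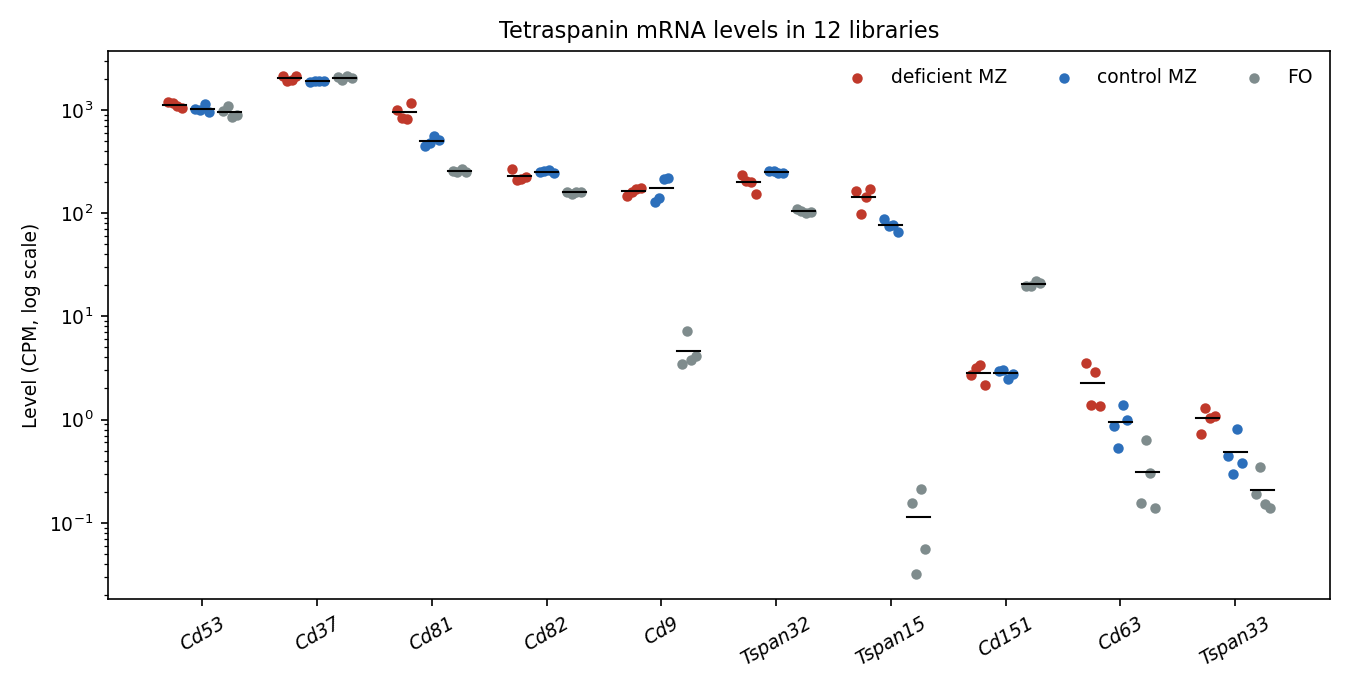
Points give the level of each gene in each of the 12 libraries (CPM, log scale), with deficient MZ, control MZ and FO libraries side by side, and black lines give the mean of 4 libraries. Cd81 and Tspan15 are the 2 genes whose 3 groups separate in the order deficient MZ, control MZ and FO, with means of 952, 499 and 256 CPM for Cd81 and 144, 76.3 and 0.114 CPM for Tspan15.

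The next question was which of the other 8 tetraspanins differed between deficient and control MZ cells. None did at an adjusted p under 0.05 (0 of 8; edgeR quasi-likelihood test with Benjamini-Hochberg adjustment over 13987 genes, of which 526, or 3.76%, were called, 2.3% higher and 1.46% lower). At an unadjusted p under 0.05, 3 of the 8 passed (Cd63, Tspan33 and Tspan32), and DESeq2 called 2 of them, Cd63 and Tspan32. The median log2 fold change over the 8 genes was 0.06, beside −0.0037 over all genes tested.

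Cd37 and Cd53, the most abundant members per kb, were not called between the MZ groups. Cd37, known to restrain interleukin signalling in B cells, read 2147, 1923, 1936 and 2126 CPM in deficient MZ and 1870, 1908, 1911 and 1888 CPM in control MZ. The lowest deficient library was just above the highest control library, with a log2 fold change of 0.09 (SE 0.07; edgeR, adjusted p = 0.495). Cd53, a pan-leukocyte tetraspanin, read 1201, 1162, 1086 and 1040 CPM in deficient MZ and 1015, 989, 1145 and 963.7 CPM in control MZ, with overlap (log2 0.12, SE 0.07; edgeR, adjusted p = 0.413).

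Tspan32, a blood cell tetraspanin whose gene begins 47.7 kb before Cd81, read 233.7, 203.1, 202 and 153.9 CPM in deficient MZ, against 255.6, 255, 243.8 and 243.2 CPM in control MZ. Every deficient library was lower than every control library, deficient replicate 8 the furthest. The log2 fold change of −0.34 (SE 0.10) missed the threshold (edgeR, adjusted p = 0.0693). Without deficient replicate 1 it was −0.43 (edgeR, adjusted p = 0.0163), without deficient replicate 8 it was −0.23 (edgeR, adjusted p = 0.158), and DESeq2 gave −0.34 (adjusted p = 0.0297). In the authors' deposited table Tspan32 has a log2 fold change of −0.29 (DESeq2, adjusted p = 0.0317), with shrinkage not stated. Groups that did not overlap were seen for Cd37 and Tspan32 among these 8 genes, beside 11.9% of all genes tested.

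Cd63, a tetraspanin of late endosomes and secretory granules, was scarce, at 3.51, 1.37, 2.88 and 1.35 CPM in deficient MZ and 0.865, 0.536, 1.39 and 0.994 CPM in control MZ. The group sums were 335 counts in deficient MZ and 152 counts in control MZ, and control replicate 5 reached into the deficient range. Its log2 fold change was 1.26 (SE 0.36; edgeR, adjusted p = 0.0644), without deficient replicate 2 it was 1.45 (edgeR, adjusted p = 0.0463), and without deficient replicate 1 it was 0.98 (edgeR, adjusted p = 0.155). DESeq2 gave 1.27 (adjusted p = 0.0143). A pseudogene copy, Cd63-ps, held 46 counts over all libraries, and how the counting shared reads between the copies is not known. The authors' deposited table lists 0.46 (DESeq2, adjusted p = 0.0169). Whether that value is shrunken is not stated, so its size may not be comparable with those above.

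Tspan33, a TspanC8 member first described in red cell precursors, read 0.732, 1.28, 1.05 and 1.09 CPM in deficient MZ and 0.445, 0.295, 0.812 and 0.382 CPM in control MZ. Control replicate 5 overlapped the deficient libraries, and the group sums were 150 counts in deficient MZ and 78 counts in control MZ. Its log2 fold change was 1.08 (SE 0.35; edgeR, adjusted p = 0.105), and without control replicate 5 it was 1.45 (edgeR, adjusted p = 0.0428), the adjusted p running up to 0.257 with other single libraries left out. The authors' deposited table lists 0.38 (DESeq2, adjusted p = 0.0661), which may likewise be shrunken and not comparable in size.

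Markers of other cell types were summed beside these scarce members. The 7 erythroid markers summed to 25.9, 15.7, 18.7 and 7.59 CPM in deficient replicates 1, 2, 7 and 8, against 1.19, 1.58, 11.2 and 4.26 CPM in control replicates 3, 4, 5 and 6, none of the 7 being at 0 in either group. Control replicate 5, the highest control library for both Cd63 and Tspan33, was also the highest control library for these markers. In deficient MZ, replicate 1 held the highest erythroid sum, the highest Cd63 level (3.51 CPM) and the lowest Tspan33 level (0.732 CPM). Deficient replicate 8 held the lowest erythroid sum, with Cd63 at 1.35 CPM and Tspan33 at 1.09 CPM. Of the 6 erythroid markers tested, 1 (Hbb-bt) was called higher in deficient MZ by edgeR, beside 2.3% of all genes tested. That call was lost in 8 of the alternatives run. At an unadjusted p under 0.05, 5 of the 6 passed, all higher, and the median log2 fold change was 1.97. Hba-a2, Alas2 and Slc4a1 failed the filter on low counts in control MZ against FO. They passed it here only with the deficient libraries, where they are higher, so this count and median lean that way. The 9 platelet markers summed to 19.5, 9.25, 16.8 and 9.16 CPM in deficient MZ, against 18.5, 13.9, 22.4 and 14.2 CPM in control MZ, with none at 0, a median log2 fold change of −0.38 and none of the 8 tested called (0 at an unadjusted p under 0.05 and 0 by DESeq2). Deficient replicates 1 and 7, the higher ones for Cd63, were the higher ones for platelet markers too. The 13 macrophage markers summed to 30.2 to 44.7 CPM in deficient MZ and 29.3 to 33.6 CPM in control MZ. Of 11 tested, 1 was called, Adgre1, higher, beside 2.3% of all genes tested. The part of such cells in the Cd63 and Tspan33 values was not tested.

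Cd9, Cd82 and Cd151 showed no called difference between the MZ groups. Cd9 read 146.6, 158.7, 170.3 and 176.5 CPM in deficient MZ and 128.9, 141.6, 216 and 217.2 CPM in control MZ. Control replicates 5 and 6 lay above all deficient libraries and control replicates 3 and 4 below all of them (log2 −0.12, SE 0.15; edgeR, adjusted p = 0.72). Cd82, known as a suppressor of tumour cell migration, read 266.1, 209.5, 213.8 and 224.8 CPM in deficient MZ and 249.5, 255.4, 263.9 and 242.4 CPM in control MZ. Deficient replicate 1 stood above every control library and the other deficient libraries below, with a log2 fold change of −0.16 (SE 0.08; edgeR, adjusted p = 0.291), and without deficient replicate 1 it was −0.23 (edgeR, adjusted p = 0.0432). Cd151, a partner of laminin-binding integrins, read 2.72, 3.16, 3.35 and 2.18 CPM in deficient MZ and 2.942, 2.999, 2.485 and 2.753 CPM in control MZ (log2 0.02, SE 0.19; edgeR, adjusted p = 0.963).

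**Figure D3:**
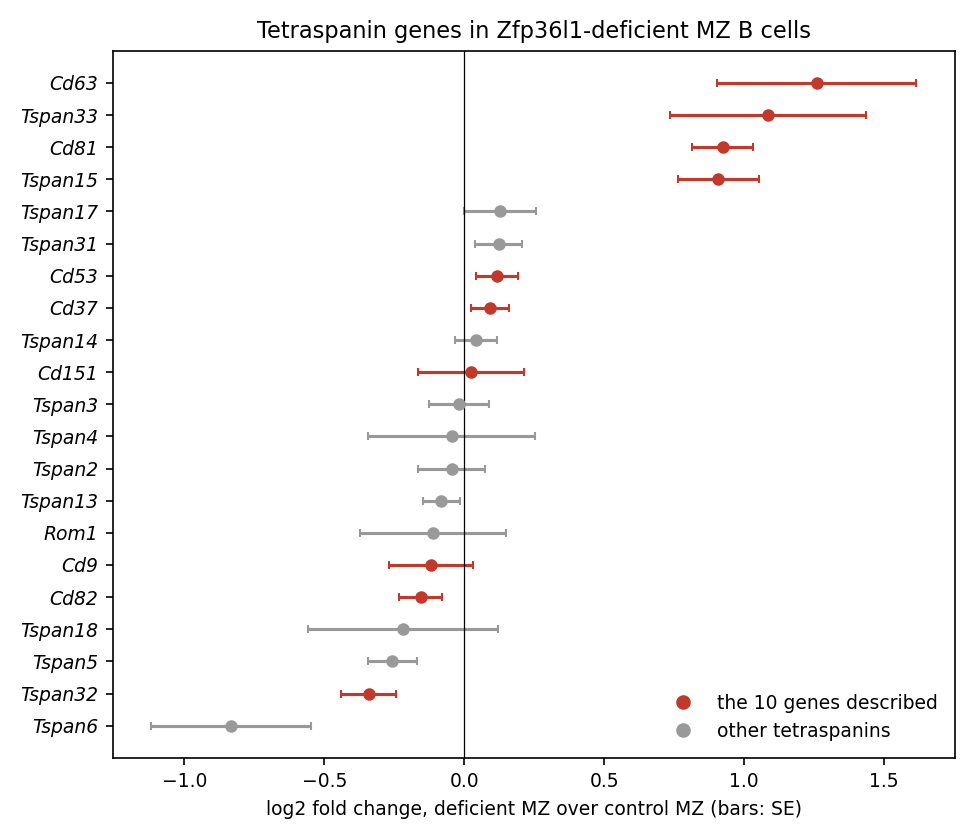
Points give the log2 fold change of deficient over control MZ for the 10 genes (red) and the 11 other tetraspanins tested (grey), and bars give the SE. Cd63, Tspan33, Cd81 and Tspan15 lie highest, at 1.26, 1.08, 0.92 and 0.91, with wider bars for the scarce Cd63 and Tspan33, and Tspan6 lies lowest at −0.83.

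The genes around each member were examined within 100 kb of its start. Of 37 neighbours tested that are no members, 2 were called higher in deficient than in control MZ and 0 lower. Over all genes tested, 2.3% were called higher and 1.46% lower, so the neighbours' share of calls is near that of all genes. Both lie near Cd81 and, further off, within reach of Tspan32. Trpm5, which encodes a calcium-activated cation channel, starts 41.9 kb after Cd81 and read 8.96, 8.05, 6.53 and 15.9 CPM in deficient MZ, against 1.36, 1.04, 2.01 and 1.33 CPM in control MZ (log2 2.76, SE 0.28; edgeR, adjusted p = 7.46e-05). FO libraries read 3.422, 4.62, 4.071 and 3.599 CPM, so Trpm5 was lower in control MZ than in FO libraries (log2 −1.44, SE 0.21; edgeR, adjusted p = 3.19e-05), unlike Cd81. R74862, a transcript antisense to Cd81 whose start lies 0.947 kb away, averaged 6.98 ± 0.748 CPM in deficient MZ and 4.598 ± 0.312 CPM in control MZ (log2 0.59, SE 0.14; edgeR, adjusted p = 0.0305). That call was lost in 7 of the 8 fits that leave out 1 library, the largest adjusted p being 0.0950 (edgeR). R74862 covers 3.61% of the Cd81 exon bases from the other strand, and since the strand setting of the counting is not given, reads of the 2 genes cannot be told apart there.

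Tssc4, which starts 16.5 kb after Cd81 and so lies between it and Trpm5, averaged 37.1 ± 3.59 CPM in deficient MZ and 33.8 ± 2.58 CPM in control MZ (log2 0.13, SE 0.09; edgeR, adjusted p = 0.46). Tspan32, on the other side, had the lower deficient values given above. The remaining tested neighbour, Tspan32os, had a log2 fold change of 0.20 (SE 0.34; edgeR, adjusted p = 0.794). A link between the Cd81 and Trpm5 values was not tested.

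**Figure D4:**
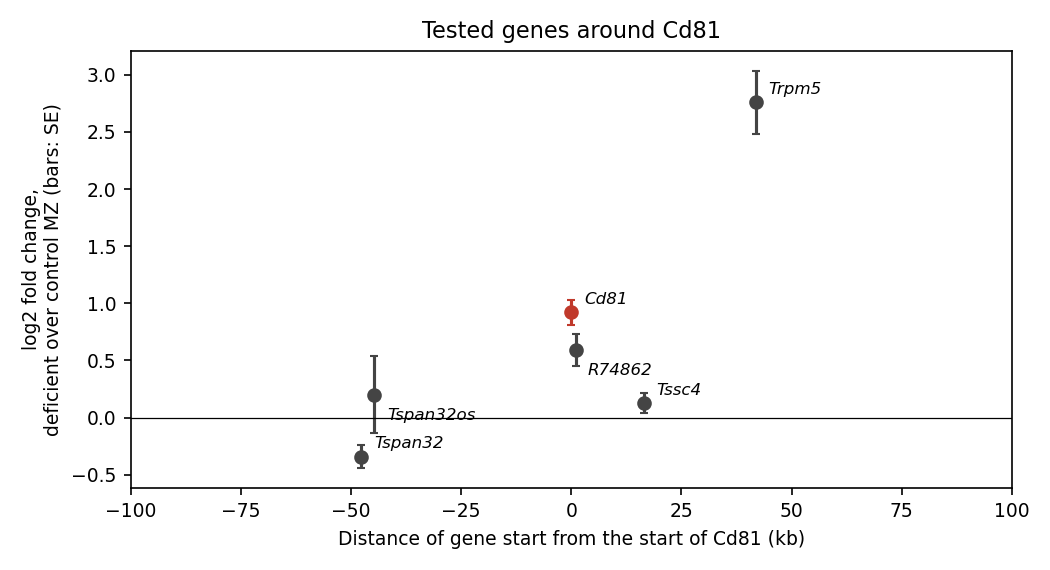
Points give the log2 fold change of deficient over control MZ for Cd81 (red) and the 5 tested genes within 100 kb (grey) against the distance of each gene start from that of Cd81 in kb, with SE bars. Trpm5 lies highest at 2.76, and Tssc4, between Trpm5 and Cd81, lies at 0.13.

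The comparison of MZ with FO cells asked which tetraspanins go with the MZ type, and it carries the differences in kit and reads named above. In control MZ against FO, 5 of the 8 tested members were called higher and 1 lower, where 81.3% of 13843 genes were called (42.6% higher, 38.7% lower), so the members' share of calls is near that of all genes. In deficient MZ against FO, 6 of the 8 were called higher and 1 lower, where 81.1% of 13895 genes were called (42.8% higher, 38.3% lower). Cd63 and Tspan33, among the higher calls in both, passed the filter on low counts only through the MZ libraries. Groups did not overlap for 76.9% of all genes in the first comparison and for 75.9% in the second. Both comparisons share the FO libraries, and the sizes of the differences, more than the calls, set the members apart from each other.

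Cd9 averaged 163 ± 13.2 CPM in deficient MZ and 176 ± 47.2 CPM in control MZ, against 3.42, 7.15, 3.77 and 4.13 CPM in the FO libraries. The lowest MZ library, at 128.9 CPM, was far above the highest FO library, at 7.15 CPM. Against FO, the log2 fold change was 5.17 (SE 0.19; edgeR, adjusted p = 8.46e-10) for deficient MZ and 5.26 (SE 0.32; edgeR, adjusted p = 2.43e-06) for control MZ. FO replicate 4 was the highest FO library for Cd9.

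Cd151 went the other way. It averaged 2.85 ± 0.519 CPM in deficient MZ and 2.80 ± 0.232 CPM in control MZ, against 19.7, 19.7, 21.8 and 21.1 CPM in FO libraries. The log2 fold change was −2.81 (SE 0.13; edgeR, adjusted p = 2.69e-10) for deficient MZ and −2.87 (SE 0.10; edgeR, adjusted p = 2.62e-11) for control MZ. Exons of the other strand lie over 7.04% of the Cd151 exon bases (Gm10575), 10.7% of those of Cd9 (Gm26728) and 4.35% of those of Tspan32 (Tspan32os), and reads from such stretches cannot be assigned without the strand setting. Tspan4, whose gene starts 7.85 kb from Cd151, averaged 1.32 ± 0.502 CPM in deficient MZ, 1.35 ± 0.353 CPM in control MZ and 0.221 ± 0.0930 CPM in FO libraries, the opposite direction (control MZ against FO log2 2.60, SE 0.35; edgeR, adjusted p = 1.13e-05).

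Tspan32 and Cd82 were moderately higher in MZ cells. Tspan32 averaged 198 ± 33.0 CPM in deficient MZ and 249 ± 6.84 CPM in control MZ, against 109.9, 104.8, 99.6 and 103.1 CPM in FO libraries. Its log2 fold change was 0.96 (SE 0.10; edgeR, adjusted p = 1.23e-06) for deficient MZ and 1.27 (SE 0.05; edgeR, adjusted p = 6.9e-11) for control MZ. Cd82 averaged 229 ± 25.8 CPM in deficient MZ and 253 ± 9.13 CPM in control MZ, against 159.5, 153.8, 161 and 162 CPM in FO libraries, with log2 fold changes of 0.55 (SE 0.07; edgeR, adjusted p = 1.26e-05) for deficient MZ and 0.68 (SE 0.05; edgeR, adjusted p = 1.13e-08) for control MZ.

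Cd37 and Cd53 had the smallest fold changes against FO. Cd37 averaged 2033 ± 119.5 CPM in deficient MZ and 1894 ± 19.0 CPM in control MZ, against 2104, 1957, 2113 and 2020 CPM in FO libraries. Control MZ libraries were all below FO libraries, yet the log2 fold change of −0.10 (SE 0.05) was not called (edgeR, adjusted p = 0.0917), while DESeq2 called it (−0.10, adjusted p = 0.0209) and upper-quartile scaling turned its sign (0.04; edgeR, adjusted p = 0.529). Deficient MZ against FO gave 0.02 (SE 0.07; edgeR, adjusted p = 0.817). Cd53 averaged 1122 ± 72.7 CPM in deficient MZ and 1028 ± 80.7 CPM in control MZ, against 985.3, 1087, 860.9 and 892 CPM in FO libraries. It was called for deficient MZ against FO (log2 0.26, SE 0.08; edgeR, adjusted p = 0.0122) and not for control MZ against FO (0.11, SE 0.08; edgeR, adjusted p = 0.197), and deficient against control MZ, tested directly, was not called. The deficient MZ call was lost without FO replicate 7 (edgeR, adjusted p = 0.0688) and without FO replicate 8 (edgeR, adjusted p = 0.0631). Without FO replicate 4, control MZ against FO was called for Cd53 (log2 0.17; edgeR, adjusted p = 0.0412) and for Cd37 (−0.14; edgeR, adjusted p = 0.0382).

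Cd63 and Tspan33, scarce in MZ cells, were scarcer in FO cells. Both passed the filter on low counts through the MZ libraries, where they are higher, so their calls against FO lean that way. Cd63 read 0.157, 0.633, 0.304 and 0.141 CPM in FO libraries (40 counts in all), with a log2 fold change of 2.92 (SE 0.47; edgeR, adjusted p = 6.54e-05) for deficient MZ and 1.63 (SE 0.45; edgeR, adjusted p = 0.0047) for control MZ. Tspan33 read 0.188, 0.348, 0.152 and 0.141 CPM in FO libraries (27 counts), with 2.35 (SE 0.35; edgeR, adjusted p = 2.85e-05) for deficient MZ and 1.24 (SE 0.43; edgeR, adjusted p = 0.0176) for control MZ. The control MZ call of Tspan33 was lost without control replicate 5 (log2 0.87; edgeR, adjusted p = 0.0708), without FO replicate 7 (edgeR, adjusted p = 0.0569) and without FO replicate 8 (edgeR, adjusted p = 0.0619). FO replicate 4, the highest FO library for Cd9, Cd63 and Tspan33, also held the highest sums of erythroid markers, 7.31 CPM beside 1.85 to 1.91 in the other FO libraries, and of macrophage markers, 33.4 CPM beside 15.0 to 17.8. The platelet markers summed to 3.77 to 4.58 CPM in FO libraries, below every MZ library. FO replicate 4 held 3.89 CPM of them, below FO replicate 8 at 4.58 CPM. In control MZ against FO, 8 of 8 tested were called higher, beside 42.6% of all genes. Markers so scarce in FO libraries can pass the filter on low counts through the MZ libraries alone, as Gp1bb and Treml1 did. That count of calls is therefore no measure of platelet content. Of 10 macrophage markers tested in control MZ against FO, 8 were called higher and 1 lower, with the same limit for the scarce ones. CD9 and CD63 are also platelet proteins. The part of platelet or macrophage RNA in the Cd9, Cd63 and Tspan33 values was not tested.

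**Figure D5:**
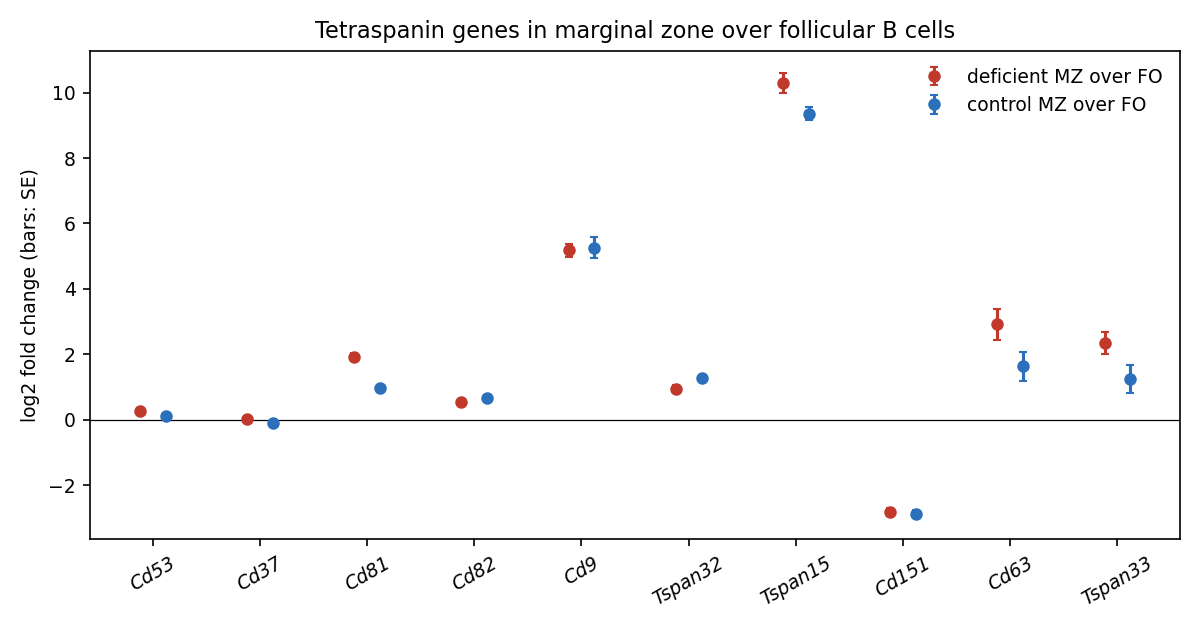
Points give the log2 fold change of deficient MZ over FO (red) and control MZ over FO (blue) for each of the 10 genes, with SE bars, and both contrasts share the FO libraries. Tspan15 (10.29 and 9.36) and Cd9 (5.17 and 5.26) lie highest, Cd151 (−2.81 and −2.87) is the only gene far below 0, and Cd37 and Cd53 lie near 0.

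Other members of the family were counted from a list of 21 further tetraspanins, 11 of which passed the filter on low counts in each comparison. Tspan11 and Upk1b had no count in any library. Between deficient and control MZ none of the 11 was called (0 in edgeR, 0 in DESeq2, 2 at an unadjusted p under 0.05), with a median log2 fold change of −0.05, and the 2 were Tspan6 (−0.83, SE 0.28; edgeR, adjusted p = 0.126) and Tspan5 (−0.26, SE 0.09; edgeR, adjusted p = 0.125), both with groups that did not overlap. In control MZ against FO, 6 were called higher and 2 lower, 8 of 11 beside 81.3% of all genes. Tspan18 (log2 3.63), Tspan4 (2.60), Tspan3 (2.45), Tspan31 (1.26), Tspan13 (1.06) and Tspan5 (0.56) were higher and Rom1 (−1.44) and Tspan2 (−0.64) lower. Tspan18 and Tspan4, at means of 0.0444 and 0.221 CPM in FO libraries, passed the filter through the MZ libraries. In deficient MZ against FO, 7 were called higher and 2 lower, beside 81.1% of all genes. Tspan13, at 92.7 CPM per kb in control MZ, stood beside Cd9 and Cd82 in level.

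The TspanC8 group can be read beside ADAM10. Tspan15 made up 17.6 CPM per kb in deficient MZ, 9.32 in control MZ and 0.0140 in FO libraries. Tspan14, the most abundant of the group per kb, held 34.2, 33.0 and 34.0 CPM per kb in deficient MZ, control MZ and FO libraries. Adam10 averaged 160 ± 21.4 CPM in deficient MZ, 181 ± 17.0 CPM in control MZ and 187 ± 8.33 CPM in FO libraries. Of Adam10 and 6 of its known substrates, none was called between deficient and control MZ (0 of 7 in edgeR, 0 in DESeq2 and 0 at an unadjusted p under 0.05), the median log2 being −0.08. In control MZ against FO, 2 were called higher (Tnfrsf13b 0.45, Cd44 0.20) and 4 lower (Fcer2a −3.31, Notch2 −1.37, Icosl −1.37, Notch1 −0.41), 6 of 7 beside 81.3% of all genes. Fcer2a encodes CD23, which the sort selected on.

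Partners that tetraspanins are known to bind were counted from a list of 13, of which 11 were tested. Between deficient and control MZ none was called in edgeR, 5 passed an unadjusted p under 0.05 and DESeq2 called 1, with a median log2 of 0.07. Cr2, which encodes CD21 and marks the sort gate, gave −0.26 (edgeR, adjusted p = 0.0856). In control MZ against FO, Cr2 (log2 1.60), Itgb1 (1.56), Sdcbp (0.51) and Pi4k2a (0.41) were among the 5 called higher, and Itga6 (−2.38), Itga4 (−2.37) and Igsf8 (−0.51) were the 3 called lower. Together 8 of 11 were called, beside 81.3% of all genes.

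AU-rich elements were looked up because Zfp36l1 binds them. The heptamer TATTTAT lies in the longest annotated 3′ UTR of 1 of the 10 genes, Cd37, and in that of 29.2% of 11427 tested genes with a UTR. The shorter core ATTTA lies in 50% of the 10 and in 70% of the tested genes. These shares are not matched for length, as the median UTR is 830 bases in the 10 and 1330 in the tested genes. The Cd37 heptamer is at chr7:45234591-45234597 on the minus strand, the Cd81 pentamer at chr7:143067896-143067900 on the plus strand and the Tspan15 pentamer at chr10:62185569-62185573 on the minus strand (GRCm38, GENCODE M21). They are shown in windows of 30 bases, with the motif in capitals, to set the gene that has the heptamer beside the genes with the higher deficient levels.
Cd37: agcggaggcgtTATTTATcaagcaatagca
Cd81: cttgaaacagtcATTTAataaaggaggaaa
Tspan15: tttcctgtgaaaATTTAaaaaaaaaaaaac
Cd37, the carrier of the heptamer, had a log2 fold change of 0.09 for deficient against control MZ. Cd81 and Tspan15 hold 1 pentamer each and no heptamer, in UTRs of 560 and 2617 bases. A match is a description of letters in 1 annotated UTR and draws nothing about binding.

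Genes with the most similar pattern over the 8 MZ libraries were ranked by the root mean square difference of centred log2 CPM among 8900 genes whose log2 CPM averaged 3 or more. For Cd81 they were Hdhd5 (0.149), Spns2 (0.162) and Gucd1 (0.171), where the median gene differed by 0.504. For Tspan15 they were Dusp5 (0.0848), Emp3 (0.194) and Spns2 (0.206), beside a median of 0.522. For Cd9, whose control libraries split into 2 low and 2 high ones, they were Apoe (0.0444), Mgst1 (0.0688) and Ccdc28b (0.0998), beside a median of 0.28. Apoe averaged 208 CPM in deficient MZ and 221 CPM in control MZ, close to the level of Cd9.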

How the data were processed

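The deposited table holds raw read counts per Ensembl gene, made by the authors. Tools named in the submitters' processing notes are DESeq2 1.10.1, HTSeq, TopHat2 2.0.12 and Trim Galore, with build GRCm38; release of the annotation, counting mode and strand are not given in the sources at hand. Per the labels' design text, MZ libraries came from 5 ng RNA with a Clontech SMARTer kit (100 bp pairs) and FO libraries from a stranded TruSeq kit (100 bp single reads), although the extraction label names SMARTer for all. Log2 fold changes and adjusted p-values credited to the authors come from the authors' deposited DESeq2 tables, and shrinkage of these values is not stated. The normalised table was not used.

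Counts were tested in edgeR 4.0.16 under R 4.3.3 by quasi-likelihood (TMM scaling, robust estimation, filterByExpr by group), and p-values were Benjamini-Hochberg adjusted over all genes tested. The fit of a comparison used only its 8 libraries, and an adjusted p under 0.05 was called. Levels are TMM-scaled CPM over 12 libraries. DESeq2 1.42.0, other scalings, no filter, 1 fit over 12 libraries, a replicate block and leaving out each library were tried. The procedure was tested on simulated data.

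Symbols and coordinates come from GENCODE M21 (GRCm38), which matched 42548 of 43629 gene IDs, and promoters from RefSeq (GRCm38.p6). No pair of library columns was identical (0), and replicates differed beyond sampling noise. Control MZ replicates 3 and 4 were closest in their group (mean chi-square per gene 6.48, other control pairs from 17.7). FO replicates 7 and 8 were closest in theirs (5.78, other FO pairs from 17.4). The labels give no batch or animal for these pairs, so the replicates may not be equally independent. The members and the gene lists were chosen with earlier results of these data known. Named genes are the members, Zfp36l1, of each list up to 6 called genes with the smallest p, called neighbours within 100 kb and the 3 genes most alike to Cd81, Cd9 and Tspan15. Any other gene printed from a list, Tssc4 and Tspan32os were named after their values were seen. Some results for listed genes are not reported here.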

Additional observations from a re-analysis of the deposited data

How the results depend on the processing

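In deficient against control MZ, 526 called genes became 1052 with DESeq2, 790 in 1 fit over 12 libraries and 257 to 506 when 1 library was left out, the lowest without control replicate 4, followed by deficient replicate 8 (299), control replicate 3 (309) and control replicate 6 (311). The count of called members without Cd81 and Tspan15, 0, became 2 with DESeq2, 2 with no filter on low counts, 1 in the fit over 12 libraries and 0 to 2 when 1 library was left out. The members concerned were Cd63, Tspan32, Cd82 and Tspan33. In control MZ against FO, the 6 called of the 8 became 5 to 8 when 1 library was left out, the highest without FO replicate 4, and in deficient MZ against FO the 7 called became 6 to 7. No called value reversed sign (0). The uncalled control MZ against FO values of Cd37 (0.04 with upper-quartile scaling) and Cd53 (−0.03 with the replicate block) did. Of 352 member values under alternatives, 331 kept their side of the threshold, 14 passed it and 7 missed it. In control MZ against FO, Cd53 passed with upper-quartile scaling (log2 0.25; edgeR, adjusted p = 0.00923), which shifts the median of all genes by 0.14 there and by 0.12 in deficient MZ against FO. Without a filter these medians shift by 0.15 and 0.16. Fitting without robust estimation, an alternative chosen after seeing the data, called 517 genes and 0 of the 8 members in deficient against control MZ.

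Replicate numbers shared by MZ and FO libraries did not pair them: the correlations of deviations were 0.14 and 0.03 for deficient MZ and −0.05 and −0.12 for control MZ. With a replicate block on the shared numbers, control MZ against FO called 9882 genes, against 11256 without it, and 4 of the 8 members, with Cd63 at a log2 of 0.93 (edgeR, adjusted p = 0.285) and Tspan33 at 0.48 (edgeR, adjusted p = 0.547). Depth limits Cd63 and Tspan33, which rest on 40 and 27 counts in FO libraries, and Tspan15 there, with 15.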
